A study of Homo sapiens with 24 samples.

Results

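The comparison described here asked whether a glucocorticoid receptor (GR) with weakened DNA binding changes the transcriptional response to dexamethasone. The measure is the response difference: the mean of 2 h and 3 h minus 0 h in the Ctrl line, minus the same quantity in the wt line, on the log2 scale. It uses 12 of the 24 libraries of the series, 6 from each line, and a negative value means a smaller rise or a larger fall in Ctrl.

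RNA made during the last hour before lysis was captured by 4sU-seq, in which cells take up 4-thiouridine (200 µM) and the labelled RNA is purified and sequenced. The cells were U2OS, a human osteosarcoma line with little endogenous GR. Both lines carried a stably integrated GR-HaloTag construct under a CMV promoter, wt GR in one and the R470A mutant (Ctrl, the study's control for reduced DNA binding) in the other. Dexamethasone, which is a synthetic GR agonist, was given at 100 nM for 2 or 3 h and 0.01% ethanol stood for 0 h, and each group of line and time had 2 libraries. Each line was a single puromycin-selected pool sorted on the HaloTag dye, so the receptor variant and the cell pool cannot be told apart. Nothing in the labels says that the 2 libraries of a group came from separate cultures, so p-values measure the spread between these libraries only. Per the study's methods, replicates went through biotinylation and pulldown in pairs. If a pair is the 2 libraries of a group, variation between pulldowns cannot be told apart from the group. The SoF line, which carries the K492A mutant with reduced RNA binding, served here to choose responsive genes from libraries that the comparison does not contain.

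GR is a nuclear receptor that sits with chaperones in the cytoplasm until a glucocorticoid binds it. It then enters the nucleus and binds glucocorticoid response elements, pairs of short inverted half-sites, to raise the transcription of genes such as FKBP5, PER1 and TSC22D3. It also lowers the transcription of many inflammatory genes, in part by contact with other factors rather than with its own DNA sites. Arginine 470 lies in the DNA-binding domain, and R470A replaces it with alanine. The reference coding sequence around that codon is shown because it is the only designed difference between the lines. It lies on chr5:143310143-143310169 of hg38, minus strand, in exon 4 of NR3C1, and capitals mark codon 470 of 777:
NR3C1 codon 470: gataaaattcgaAGAaaaaactgccca

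The receptor gene was examined first. NR3C1 RNA was 552 and 824 CPM (counts scaled to a common library size) in wt at 0 h and 3202 and 3431 CPM in Ctrl at 0 h. At 2 h it was 469 and 715 CPM in wt and 2234 and 2515 CPM in Ctrl, and at 3 h 334 and 366 CPM against 1764 and 1627 CPM. The lines did not overlap at any of these times. Reads of the endogenous and introduced copies were counted together, so NR3C1 cannot show the mutation itself. The Ctrl minus wt level was 2.27 at 0 h and 2.14 at 2-3 h on the log2 scale (SE 0.15 for the latter, adjusted p in edgeR 4.67e-06 and 1.07e-08), so Ctrl held more receptor RNA at 0, 2 and 3 h. RNA is not protein: per the study's methods, the sorted pools were picked so that nuclear GR signal after dexamethasone was similar between lines by immunofluorescence, which was not analysed here. NR3C1 fell after dexamethasone in both lines, by 0.60 (log2) in wt and 0.72 in Ctrl, and its response difference was -0.13 (SE 0.25). What part the higher receptor RNA has in any result below was not tested.

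Both lines responded widely. Of 23651 genes tested, 1587 rose and 1018 fell in wt (6.71% and 4.3%), and 2189 rose and 1529 fell in Ctrl (9.26% and 6.46%) by edgeR's quasi-likelihood test at an adjusted p under 0.05. In bulk samples, fewer responding cells and less RNA per cell cannot be told apart. Both lines shared 1107 rising and 618 falling genes, and 0 genes were called in opposite directions. These counts leaned on single 0 h libraries. The wt count of 2605 became 789 when replicate 2 of its 0 h group was left out, and the Ctrl count of 3718 likewise became 821. Dropping wt 0 h replicate 1 gave a wt count of 1717, dropping wt 2 h replicate 2 gave 1284, dropping wt 3 h replicate 2 gave 1689, and dropping Ctrl 3 h replicate 2 gave a Ctrl count of 2354.

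The response difference itself was called for 0 genes (0% of 23651) in edgeR, where the smallest adjusted p was 0.907. Unadjusted p-values fell below 0.05 for 872 genes (3.69%), of which 342 had a smaller response in Ctrl (1.45%) and 530 a larger one (2.24%), while 5% of all tests is 1183 genes. DESeq2 called 2 genes, PDK4 and SGK1. In edgeR, leaving out replicate 2 of wt at 0 h gave 3 calls, TXNIP, PTGS2 and PDK4. The standard error of the difference had a median of 0.32 over genes, against 0.22 for the wt response, and it rests on 6 groups of 2 libraries. Of 54 named genes, 32 had a difference that moved by over 1.5 times with 1 library left out. A missing call does not show equal responses.

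Genes chosen in SoF gave a view of the response as a whole. The choice used SoF values, with an estimate of spread shared by all 24 libraries, and the values below come from the 12 libraries. In SoF, where 9.61% of genes rose and 7% fell by the test, 783 genes passed it with a rise of at least 1 on the log2 scale at 2-3 h. Their median response was 1.07 in wt and 1.16 in Ctrl, and the median response difference was 0.05, against 0.0052 over all genes tested. Of the 783 genes, 561 rose in wt and 557 in Ctrl (6.71% and 9.26% of all genes), and 472 rose in both. A smaller response in Ctrl was measured for 358 of them (45.7%, against 49.3% of all genes), and the middle of the distribution ran from -0.30 to 0.36 between quartiles. At an unadjusted p under 0.05 in edgeR, 36 were smaller and 36 larger in Ctrl, which is 4.6% each. Over all genes the shares were 1.45% smaller and 2.24% larger. The 709 genes that fell in SoF by at least 1 had medians of -1.06 in wt and -1.12 in Ctrl, with a median difference of -0.06. The median for risen genes changed sign with single libraries, from -0.14 without replicate 2 of Ctrl at 0 h to 0.39 without replicate 1 of Ctrl at 0 h. Across the 1492 genes together, the wt and Ctrl responses had a Pearson correlation of 0.89 and a Spearman correlation of 0.88, against 0.69 and 0.67 over all 23651 genes. The 1492 genes were chosen for large moves in both directions and all share the same libraries, so these values are a description.

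**Figure D1:**
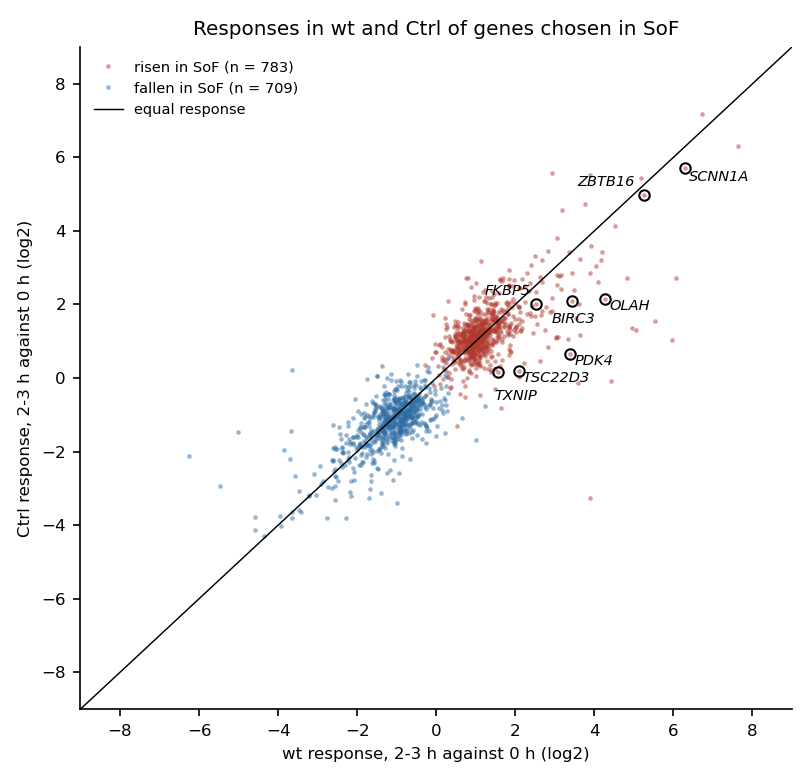
Each point is a gene chosen in SoF (783 risen, 709 fallen), with its wt response on the x axis and its Ctrl response on the y axis, both log2 at 2-3 h against 0 h; the line marks equal responses. Most points lie along the line, while PDK4 (3.39 against 0.65) and TSC22D3 (2.08 against 0.20) lie far below it.

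The level reached after dexamethasone is measured more precisely, since the 0 h libraries do not enter it. At 2-3 h, 435 genes were higher and 568 lower in Ctrl than in wt (1.84% and 2.4% of tested genes, 4.24% together). At 0 h, 26 were higher and 47 lower (0.11% and 0.199%, 0.309% together). The 0 h comparison holds fewer libraries and has a larger median SE (0.26 against 0.18), so the counts cannot be compared directly. At an unadjusted p under 0.05 in edgeR they were 3559 genes at 0 h and 4520 at 2-3 h. Leaving out 1 library of the 2 h or 3 h groups brought the 2-3 h count of 1003 to between 365 (wt 3 h replicate 1) and 653 (Ctrl 2 h replicate 2) in 6 of 8 cases, among them 379 without Ctrl 3 h replicate 1, 402 without Ctrl 2 h replicate 1, 427 without wt 2 h replicate 1 and 601 without Ctrl 3 h replicate 2. The 0 h count of 73 lay between 12 without wt replicate 1 and 225 without wt replicate 2, with 14 without Ctrl replicate 2 and 213 without Ctrl replicate 1. Among the 783 genes that rose in SoF, 76 were lower in Ctrl at 2-3 h (9.71%) and 37 higher (4.73%), and at 0 h 4 were lower and 1 higher. Of those 76 genes, 67 rose in wt and 39 in Ctrl, against 561 and 557 of all 783. The 76 were picked by libraries that also enter both responses, so these counts of rises describe the choice and are no further evidence. In 63 of the 76 the 0 h estimate was already below 0, with a median of -0.39, against -0.12 over the 783.

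The 10 genes of smallest p with a smaller response in Ctrl were SGK1, PDK4, TSC22D3, SP110, LURAP1L, CDC42EP3, TXNIP, SLC19A2, CD109 and OLAH. None passed the adjusted test of the difference in edgeR with the low-count filter. Without that filter SGK1, PDK4, TSC22D3, LURAP1L, TXNIP and SLC19A2 were called (adjusted p in edgeR from 3.01e-10 for TSC22D3 to 0.00543 for SGK1). The estimate for TSC22D3 was -1.88 with the filter and -1.87 without it, so only its p-value depended on the filter. DESeq2 called PDK4 and SGK1 and none of the others (adjusted p 0.390 for LURAP1L and 0.908 for TXNIP, for example). All 10 are described by their levels. In 9 of them every Ctrl library at 2 h and 3 h lay below every wt library, a pattern seen in 6.52% of all genes. All 10 were lower in Ctrl at 2-3 h and none was called at 0 h. The response difference, both responses and both level differences share libraries, so these counts are a description of the 10 and no further evidence.

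PDK4 encodes a kinase that inhibits pyruvate dehydrogenase and so holds back the entry of pyruvate into the citric acid cycle. In wt it was 2.43 and 5.69 CPM at 0 h, 42.7 and 39.2 CPM at 2 h, and 44.5 and 42.1 CPM at 3 h. In Ctrl it was 0.928 and 1.65 CPM at 0 h, 1.80 and 3.55 CPM at 2 h, and 1.1 and 1.53 CPM at 3 h. No Ctrl library at 2 h or 3 h reached the higher of the wt 0 h values. The rise was 3.39 (SE 0.29, adjusted p 1.09e-07) in wt and 0.65 (SE 0.44, adjusted p 0.345) in Ctrl, and the difference was -2.74 (SE 0.57, unadjusted p 7.97e-05). DESeq2 gave -2.76 with an adjusted p of 0.000314. At 1 h the Ctrl libraries stood at 6.53 and 10.3 CPM, a rise of 2.78 that passed the test (adjusted p 0.00209 in edgeR), against 36.4 and 38.5 CPM in wt. The response difference was thus -0.44 after 1 h and went to -2.17 and then -3.32 after 2 and 3 h. The level at 2-3 h was lower in Ctrl (difference -4.45, SE 0.24, adjusted p 1.68e-10), and at 0 h the estimate was -1.71 without a call (adjusted p 0.0912).

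TSC22D3 encodes GILZ, a leucine zipper protein that carries part of the anti-inflammatory action of glucocorticoids. It was 16.7 and 17.1 CPM in wt at 0 h, 53.6 and 93.6 CPM at 2 h, and 77.6 and 61.7 CPM at 3 h. In Ctrl it was 21.5 and 22 CPM at 0 h, 24.9 and 28.8 CPM at 2 h, and 24 and 22.6 CPM at 3 h. At 2 h and 3 h the Ctrl libraries thus lay slightly above their 0 h values, while all wt libraries lay far above theirs. At 1 h it was 41.4 and 55.8 CPM in wt and 30.9 and 42.7 CPM in Ctrl, where the rise of 0.76 (SE 0.34) did not pass the adjusted test. The response was 2.08 (adjusted p 0.000154) in wt and 0.20 (adjusted p 0.690) in Ctrl, with a difference of -1.88 (SE 0.42, unadjusted p 0.000184). The 2-3 h level was lower in Ctrl (difference -1.51, SE 0.24, adjusted p 0.000541).

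SGK1, a kinase that raises sodium channel activity in epithelia, was 218 and 295 CPM in wt at 0 h and 411 to 473 CPM over the 4 libraries at 2 h and 3 h. In Ctrl it was 293 and 275 CPM at 0 h and 242 to 280 CPM later. SGK1 rose by 0.81 in wt (adjusted p 0.000478) and gave -0.13 in Ctrl (adjusted p 0.530). The difference of -0.95 (SE 0.19, unadjusted p 4.79e-05) had the smallest p of all 23651 genes, and DESeq2 gave it an adjusted p of 0.0167. At 1 h the lines were closer, at 384 and 486 CPM in wt and 407 and 377 CPM in Ctrl.

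TXNIP, an alpha-arrestin that binds thioredoxin and limits glucose uptake, was 8.49 and 20.4 CPM in wt at 0 h, 34.5 and 53.1 CPM at 2 h, and 33.6 and 49.6 CPM at 3 h. In Ctrl it was 20.5 and 16.1 CPM at 0 h, 29.8 and 29.1 CPM at 2 h, and 12 and 16.6 CPM at 3 h. At 1 h it was higher in Ctrl (38.3 and 33.4 CPM) than in wt (25.5 and 28.1 CPM), so the gap lay at the later times. The difference was -0.93 at 2 h and -1.91 at 3 h. The pooled value of -1.42 (SE 0.36) depended on the wt 0 h libraries, at -2.19 without replicate 2 and -0.90 without replicate 1.

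SLC19A2 carries thiamine into cells. It was 29.9 and 37.4 CPM in wt at 0 h and 84.4 to 117 CPM at 2 h and 3 h, against 28.5 and 43.8 CPM and then 37.8 to 48.9 CPM in Ctrl. SP110, a nuclear body protein of the interferon response, stood at 15 and 13.4 CPM in wt at 0 h and at 27.0 to 32.2 CPM later, against 16.1 and 13.7 CPM and then 13.3 to 17.3 CPM in Ctrl. In both genes every wt library at 2-3 h lay above the wt 0 h values, while the Ctrl libraries overlapped theirs. Their differences were -1.26 (SE 0.33) and -1.03 (SE 0.23). CDC42EP3, an effector of the small GTPase CDC42, and CD109, a cell surface protein that binds TGF-beta, showed the same order at smaller size, with differences of -0.81 (SE 0.21) and -0.66 (SE 0.18).

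LURAP1L and OLAH departed from this pattern. LURAP1L did not pass the test in wt (0.86, adjusted p 0.0683), and in Ctrl it fell by 1.06 on the log2 scale (adjusted p 0.0262), from 7.07 and 5.53 CPM at 0 h to 1.80 and 3.55 CPM at 2 h and 3.56 and 3.15 CPM at 3 h. OLAH, a thioesterase of fatty acid synthesis, rose in both lines, by 4.27 in wt and 2.15 in Ctrl. At 0 h it was 0.27 and 0.231 CPM in wt and 0.714 and 0.589 CPM in Ctrl, a level difference of 1.36 without a call, larger in size than that at 2-3 h and resting on few reads. Its 2-3 h libraries were 4.10 to 5.80 CPM in wt and 2.16 to 4.4 CPM in Ctrl, which overlap, and its lower 2-3 h level in Ctrl (-0.76, adjusted p 0.0325) was lost in 7 of the 12 fits that left out 1 library, each time a 2 h or 3 h library. The 2-3 h level of the other 9 genes stayed lower in all 12 such fits.

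**Figure D2:**
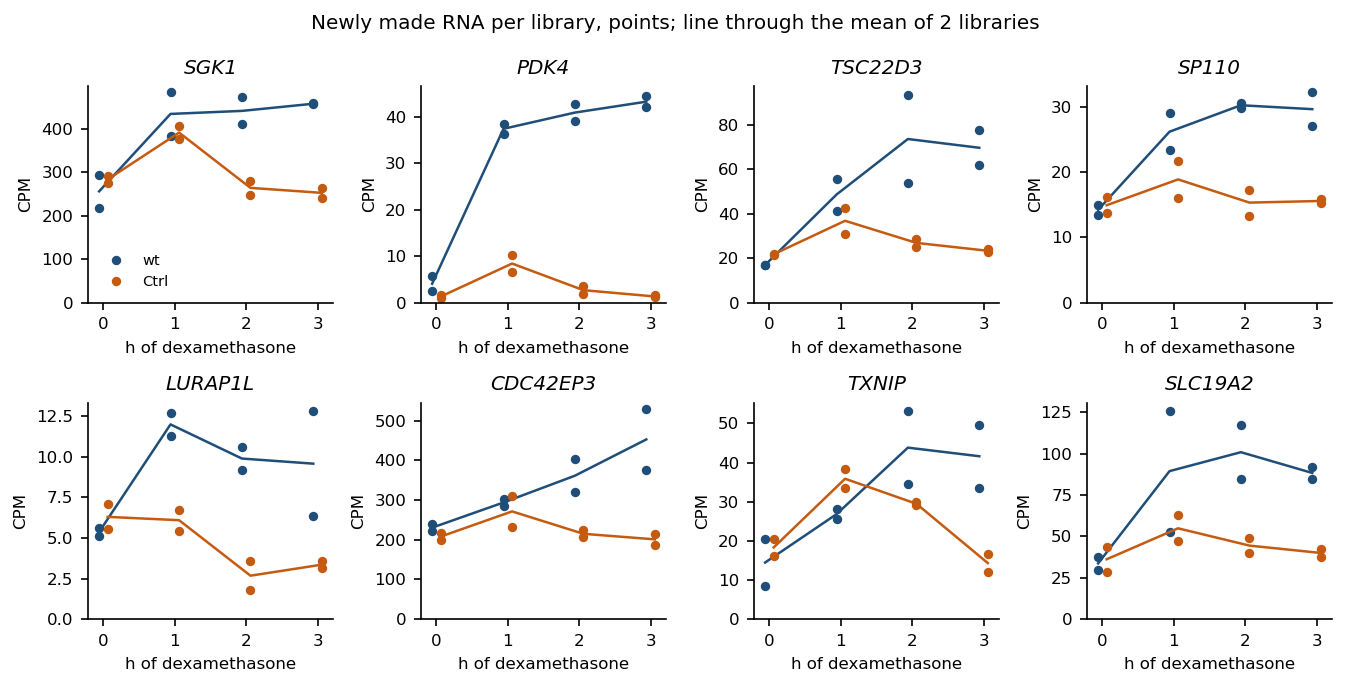
CPM of newly made RNA (y axis) at 0, 1, 2 and 3 h of dexamethasone (x axis) in wt (blue) and Ctrl (orange) for the 8 genes of smallest p with a smaller response in Ctrl; points are single libraries and lines join the means of 2. In every panel all 4 Ctrl points at 2 h and 3 h lie below all 4 wt points at those times, and for PDK4 and CDC42EP3 the Ctrl points are lower at 0 h too.

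The 10 genes of smallest p with a larger response in Ctrl included KRT16, VWA5B2, SH3PXD2A-AS1, NAPRT, TXNRD2, RFNG, RAP1GAP, LTBP3 and MAN2C1. None was called in edgeR with the low-count filter, and without that filter VWA5B2 and LTBP3 were (adjusted p 0.00158 and 0.0143). DESeq2 called neither. Of the 10, 9 rose in Ctrl, and 8 had a larger level difference at 0 h than at 2-3 h. Their median Ctrl minus wt level was -0.83 at 0 h and 0.11 at 2-3 h. In the 10 genes of smaller response the medians were 0.12 at 0 h and -1.01 at 2-3 h.

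VWA5B2 shows the common order. It was 27.2 and 17.5 CPM in wt at 0 h and 30.4 to 39.8 CPM later, and 7.50 and 7.18 CPM in Ctrl at 0 h and 21 to 44.3 CPM later. The lines overlapped at 2-3 h and were apart at 0 h, where Ctrl was lower (difference -1.6, adjusted p 0.0108). RFNG, which adds sugars to Notch receptors, was likewise lower in Ctrl at 0 h (-1.17, adjusted p 0.0132) and not called at 2-3 h. The 0 h calls of VWA5B2 and RFNG were lost without wt 0 h replicate 1 or Ctrl 0 h replicate 2. TXNRD2, the mitochondrial thioredoxin reductase, and NAPRT, an enzyme of NAD synthesis, had 0 h estimates of -0.69 and -0.95 without a call.

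KRT16 and SH3PXD2A-AS1 departed from this order. KRT16, a keratin of stressed epithelium, was 3.51 and 3.62 CPM in wt at 0 h and 1.04 to 1.82 CPM at 2-3 h, and it fell in wt by 1.33 (adjusted p 0.00206). In Ctrl it was 4.29 and 2.83 CPM at 0 h and 3.51 to 5.82 CPM later, without a call (0.34, adjusted p 0.392). All 4 Ctrl libraries lay above all 4 wt libraries, as did 6.14% of all genes, and the 2-3 h level was higher in Ctrl by 1.69 (SE 0.22, adjusted p 0.000113). KRT16 has near-identical paralogs and pseudogenes, so its counts are uncertain. SH3PXD2A-AS1, antisense to SH3PXD2A, was 3.98 and 1.85 CPM in wt at 0 h and 2.17 to 3.84 CPM later, against 1.64 and 1.88 CPM and then 4.14 to 6.55 CPM in Ctrl. Its Ctrl libraries at 2-3 h also lay above all wt libraries, with a level difference of 0.91 (adjusted p 0.0213) that was lost in 4 of 12 fits with 1 library left out, and of -0.75 at 0 h without a call. Of the 20 genes, 15 overlap an annotated gene on the other strand. That counting respected strand is known from the name of the table alone.

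**Figure D3:**
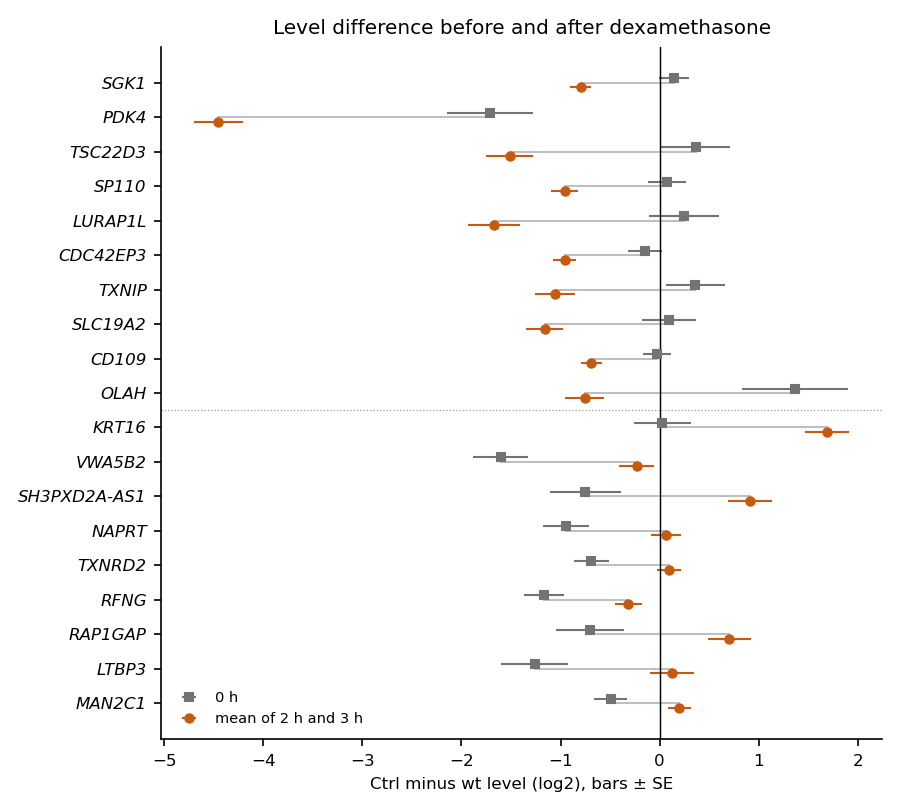
Ctrl minus wt level (log2, x axis, bars ± SE) at 0 h (grey squares) and at 2-3 h (orange circles) for the 10 genes of smallest p with a smaller response in Ctrl and 9 of the 10 with a larger one (y axis, the dotted line parts them). Above the line the orange points are below 0 (median -1.01), while below it the grey points lie below 0 for all genes but KRT16 (RFNG at -1.17, for example).

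Base composition moved with the difference. Over 23603 genes, the GC content of the longest transcript had a Spearman correlation of 0.38 with the response difference, -0.35 with the 0 h level difference and -0.04 with the 2-3 h level difference, as a description across genes of the same libraries. The median response difference ran from -0.17 in the quartile of lowest GC content to 0.20 in the quartile of highest. Median GC content was 41.5% for the 342 genes with a smaller response in Ctrl, 58.1% for the 530 with a larger one and 47.7% for all genes. With a GC offset in the fit, SGK1 gave -0.84, PDK4 -2.61 and TSC22D3 -1.98, while TXNRD2 went from 0.78 to 0.50 and MAN2C1 from 0.69 to 0.48. The part of GC content in these differences was otherwise not tested.

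Genes known to rise with glucocorticoids were read as a list of 44, of which 39 were tested. The response was smaller in Ctrl for 34 of the 39 (49.3% of all genes), with a median difference of -0.60, against 0.0052 over all genes. At an unadjusted p under 0.05, 14 were smaller in Ctrl and 0 larger (1.45% and 2.24% of all genes), and edgeR called 0. In wt 20 of the 39 rose and 2 fell (6.71% and 4.3% of all genes). In Ctrl 11 rose and 3 fell (9.26% and 6.46% of all genes), all 11 also rising in wt. At 2-3 h, 10 were lower in Ctrl and 0 higher (2.4% and 1.84% of all genes). At 0 h 1 was lower and 0 higher (0.199% and 0.11% of all genes). These calls do not show how the differences divide between the times. LPIN1 gave a level difference of 0.53 at 0 h and -0.04 at 2-3 h, and FKBP5 0.36 and -0.15. The opposite order held for SLC19A2 (0.09 and -1.16) and MT1X (0.10 and -1.07). The list was drawn up with earlier results of these data known, so its direction is no independent evidence.

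Among the targets that rose in both lines, SCNN1A, the alpha subunit of the epithelial sodium channel, went from 0.472 and 0.231 CPM to 21.4 to 32 CPM in wt and from 0.5 and 0.353 CPM to 22.5 to 24.4 CPM in Ctrl. ZBTB16, a zinc finger repressor, rose by 5.26 in wt and 4.97 in Ctrl. IP6K3, an inositol phosphate kinase, rose by 4.20 and 3.42, and its 2-3 h level was lower in Ctrl (difference -0.88, SE 0.16, adjusted p 0.00241), with 14.3 to 27.5 CPM in wt and 7.29 to 12.2 CPM in Ctrl.

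FKBP5, a chaperone partner that lowers the hormone affinity of GR, was 22.8 and 28.0 CPM in wt at 0 h, 75.6 and 121 CPM at 2 h, and 214 and 224 CPM at 3 h. In Ctrl it was 31.6 and 33.8 CPM at 0 h, 120 and 85.1 CPM at 2 h, and 170 and 171 CPM at 3 h. The lines overlapped at 2 h and were apart at 3 h, with differences of -0.31 and -0.73. The pooled difference was -0.52 (SE 0.25, unadjusted p 0.0552). PER1, a repressor of the circadian clock, rose by 1.58 in wt and 1.43 in Ctrl, and its difference of -0.15 turned to 0.26 without replicate 1 of Ctrl at 0 h.

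BIRC3, a ubiquitin ligase that inhibits apoptosis, was 35.1 and 31.6 CPM in wt at 0 h and 254 to 398 CPM at 2-3 h, against 65.4 and 46.4 CPM and then 221 to 266 CPM in Ctrl. It rose in both lines, by 3.43 and 2.10, and the lines overlapped at 2-3 h, since the highest Ctrl library exceeded the lowest wt library. The difference was -1.33 (SE 0.56, unadjusted p 0.0262). CEBPB, a bZIP factor of inflammation and metabolism, rose by 2.67 and 1.83, and KLF9, a zinc finger factor, by 2.09 and 1.48. ETNK2, an ethanolamine kinase, rose by 1.29 and 0.76, and its 2-3 h level was lower in Ctrl (difference -0.92, SE 0.13, adjusted p 0.000204) with no overlap of libraries. DUSP1, a phosphatase that switches off MAP kinases, did not pass the test in wt (-0.07, adjusted p 0.846) and fell by 0.90 in Ctrl (adjusted p 0.00136). ANGPTL4 did not pass the low-count filter.

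**Figure D4:**
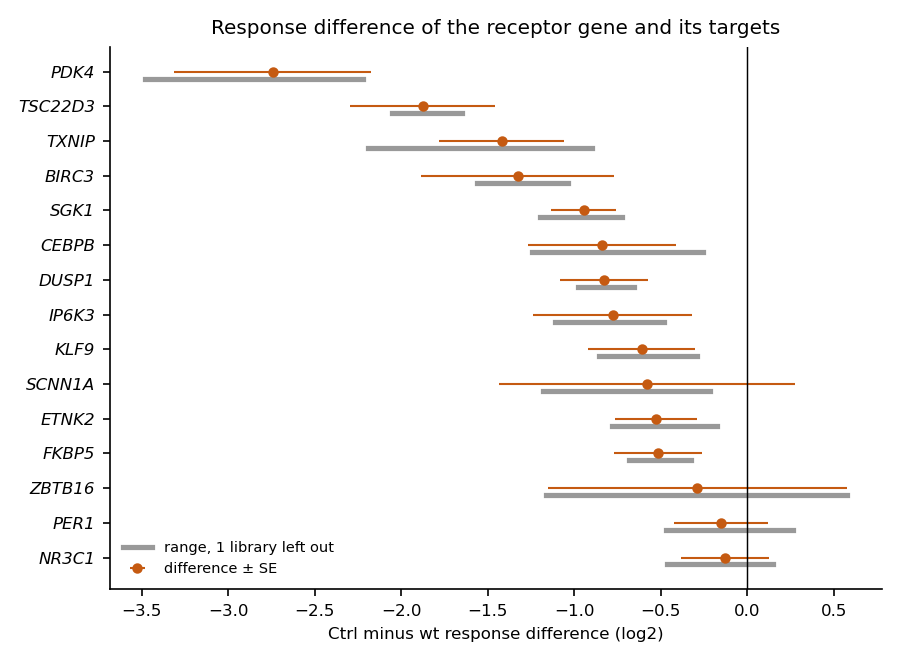
Response difference (log2, x axis) of NR3C1 and 14 known GR targets, with points ± SE from edgeR and grey bars for the range when 1 of the 12 libraries is left out. All 15 points are below 0, and the bars of NR3C1, PER1 and ZBTB16 reach above 0.

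The list also holds MT1X, DDIT4 and GLUL, which are named here after their values were seen. MT1X, a metallothionein, rose in wt (1.66, adjusted p 0.000690) and gave 0.50 in Ctrl (adjusted p 0.248). DDIT4, an inhibitor of mTORC1, rose in wt by 1.61 and gave 0.32 in Ctrl, yet its 2-3 h level gave -0.03 without a call (adjusted p 0.973), and at 0 h it was 221 and 132 CPM in Ctrl against 65.3 and 82.3 CPM in wt. GLUL, glutamine synthetase, was lower in Ctrl both at 0 h (-2.06, adjusted p 0.00374) and at 2-3 h (-2.76, adjusted p 5.68e-08), with 1.29 to 2.12 CPM in all 6 Ctrl libraries and 6.15 to 11.8 CPM in the wt libraries.

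The other lists had medians nearer to that of all genes. Of 24 immediate-early transcription factors, 17 fell in wt and 16 in Ctrl (4.3% and 6.46% of all genes), with a median difference of -0.11 and 0 genes at an unadjusted p under 0.05 in either direction. NR4A2, an orphan nuclear receptor, fell by 1.94 in wt and 2.35 in Ctrl, and EGR3, a zinc finger factor, fell in wt (-1.43) and gave -0.79 in Ctrl without a call. Of 19 cytokine and protease genes tested, 12 had a negative difference, with a median of -0.41. PTGS2, the inducible cyclooxygenase, fell from 42.6 and 90.4 CPM to 10.6 to 21.2 CPM in wt and from 77.1 and 81.7 CPM to 5.94 to 14.3 CPM in Ctrl, by 2.17 and 3.11 on the log2 scale. CXCL3, a neutrophil chemokine, was called in neither line and was lower in Ctrl at 2-3 h (difference -1.06, adjusted p 0.0222), a call lost in 4 of 12 fits with 1 library left out.

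Of 18 NF-kB pathway genes, 13 had a negative difference (median -0.20), and NFKBIZ, an atypical inhibitor of the pathway, fell by 0.95 in wt and 1.48 in Ctrl. Of 14 MAPK feedback genes, 7 were negative and 7 positive. ERRFI1 and DUSP10, which restrain EGFR and stress kinases, were called in neither line, with differences of -0.71 and -0.61, and SPRED2 gave 0.37. The level difference of ERRFI1 was 0.68 at 0 h and -0.03 at 2-3 h, and that of DUSP10 was -0.02 and -0.63. Without Ctrl 0 h replicate 1 DUSP10 gave -0.33. Of 17 C/EBP and KLF factors, 15 were negative (median -0.28), with KLF15 lowest at -1.56. KLF15 had a mean of 1.19 CPM, and its difference lay between -2.22 and -0.81 with 1 Ctrl 0 h library left out, while its 2-3 h level difference was -1.96 (adjusted p 0.00261). Of 15 genes for pyruvate dehydrogenase kinases and alpha-arrestins, 10 were negative (median -0.07). PDK1 gave -0.71, with a level difference of 0.77 at 0 h and 0.05 at 2-3 h.

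Of 14 YAP targets, 11 were negative (median -0.17). F3, tissue factor, rose in wt (1.39, adjusted p 0.00241) and gave 0.16 in Ctrl, with a 0 h estimate of 1.33 and a 2-3 h estimate of 0.10, and ANKRD1 fell in Ctrl by 0.99. PPARGC1A, a coactivator of mitochondrial genes, was lower in Ctrl at 2-3 h (difference -1.28, adjusted p 0.00109). TPM2, HSF1, CHKB and SC5D had the smallest p of the actin, heat shock, phospholipid and cholesterol lists, with differences of 0.60, 0.40, 0.50 and -0.73. HSF1 gave 0.20 and CHKB 0.16 without wt 0 h replicate 1, HSF1 gave 0.12 with the GC offset, and SC5D gave -0.37 without Ctrl 0 h replicate 2. The medians of these lists were 0.07, -0.05, 0.0033 and -0.24, and those of the clock, TGF-beta and BMP, p53, ATF4 and receptor and chaperone lists were -0.15, -0.02, -0.26, -0.28 and -0.04.

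Groups not known as GR targets were read beside these lists. All 26 cytosolic ribosomal protein genes had a positive difference (median 0.20) with 0 called in either line, and 12 of 13 mitochondrially encoded mRNAs did (median 0.23). Over all genes 49.3% had a negative difference, and the median was 0.0052. DNA replication and mitosis genes had medians of 0.04 and -0.08. Of 10 osteoblast and osteosarcoma markers, 6 were tested, and COL1A1, SPARC and RUNX2 were present in all 12 libraries while IBSP, SP7 and TWIST1 were at or near 0. The summed marker level was 1003 to 1320 CPM in wt and 806 to 1413 CPM in Ctrl. ALPL, alkaline phosphatase, rose in both lines (1.08 and 1.75), and COL1A1 rose in Ctrl (0.92). Summed epithelial markers were 4.39 to 10.5 CPM in wt and 4.22 to 10.7 CPM in Ctrl, endothelial markers 1.74 to 5.15 and 1.76 to 5.31 CPM, and haematopoietic markers 0.405 to 1.23 and 0.264 to 1.26 CPM, with CD3E and HBB at 0.

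**Figure D5:**
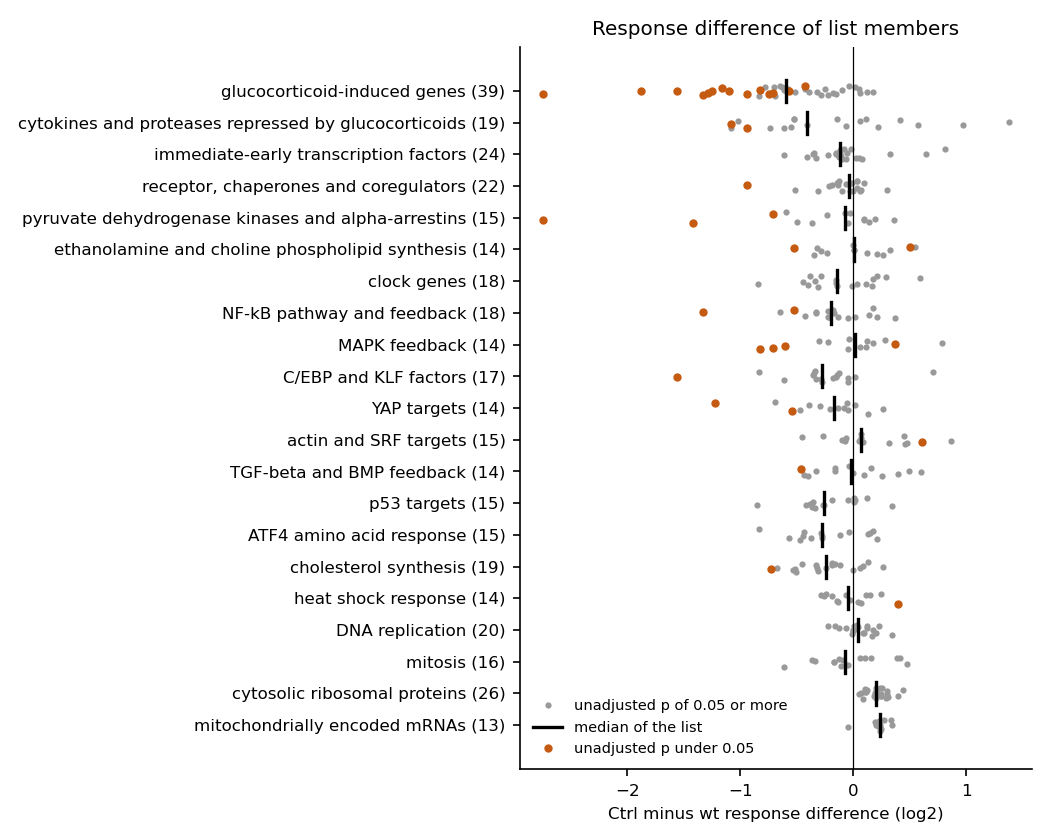
Response difference (log2, x axis) of each tested member of 21 gene lists (y axis, number tested in brackets); orange points have an unadjusted p under 0.05 and black bars mark list medians. The glucocorticoid-induced list has its median at -0.60, the lowest of the lists drawn, and ribosomal and mitochondrial genes lie just above 0.

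The letters of a glucocorticoid response element were read beside these values, since the Ctrl receptor was altered in DNA binding. The core, the half-sites GNACA and TGTNC apart by 3 bases, which reads the same on both strands, was searched in hg38 within 10000 bases on each side of the annotated gene start. It was found for 22.6% of 23543 tested genes, for 31.1% of the genes that rose and 24.1% of those that fell in SoF, for 3 of the 10 genes with a smaller response in Ctrl and 4 of the 10 with a larger one, and for 7 of 11 other named genes (NR3C1 and 10 known targets). Matches are shown for 3 genes whose rise was called in wt and not in Ctrl and for 4 whose rise was called in both, with the core in capitals.
TXNIP, chr1:145996742-145996754: tggcgcgtGGACACGGTGTGCtcctggct
SLC19A2, chr1:169483788-169483800: ggaaaggcGCACAAACTGTGCagatcaca
TSC22D3, chrX:107767845-107767857: ttgggacaGCACAGTATGTTCtgggccat
FKBP5, chr6:35728114-35728126: cggggctgGAACACAATGTCCcgagcggg
BIRC3, chr11:102312892-102312904: tggaattaGAACAGTATGTTCcctgtaag
SCNN1A, chr12:6376319-6376331: gggccctaGGACATTCTGTTCttttttac
PER1, chr17:8154461-8154473: gcacttggGAACATCATGTTCtcttggct

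The coordinates span the core, and sequences are given on the plus strand. The match lies 169 bases before the annotated start in TXNIP and 2150 and 9491 bases after it in SLC19A2 and TSC22D3. No match was found in this window for SGK1, PDK4, SP110, LURAP1L, CDC42EP3, CD109 or OLAH, nor for ZBTB16, CEBPB and DUSP1, which says only that these letters are absent from it. A match is a description and no evidence of binding.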

How the data were processed

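The deposited table holds whole-number read counts per gene, made by the authors with UMI-tools (1.1.2), Trim Galore (0.6.6), STAR (2.7.3a, hg38) and featureCounts over exons, after removal of duplicate molecules and with no normalization. Counts of all 24 libraries (12 groups) were fitted together in edgeR 4.0.16 with TMM factors, filterByExpr (minimum count 10, minimum total 15), the quasi-likelihood test and Benjamini-Hochberg adjustment at 0.05, and the interaction was tested as a contrast. Standard errors are the absolute log2 change divided by the square root of F. DESeq2 1.42.0 was the other tool. Totals of the 12 libraries were 8106036 to 15820806 counts, and 23651 of 48707 genes with a count were kept. Names and positions came from GENCODE 44. The script was tested on simulated data. Named genes were those called (none), the 10 of smallest unadjusted p in each direction (protein-coding or lncRNA, mean CPM of at least 1), a fixed set of receptor and target genes, and up to 4 per list; a few of these genes are not reported here. The members and lists were chosen with earlier results of these data known. Alternatives were another scaling, filters, fewer libraries, replicate blocks, single libraries left out and, chosen after seeing the data, an offset over 20 bins of GC content.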

Additional observations from a re-analysis of the deposited data

How the results depend on the processing

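The response difference gave 30 calls without the low-count filter (9 larger in Ctrl), 2 in DESeq2, 1 with a replicate block within each line (TSC22D3, -1.88, adjusted p 0.00559) and 0 with a block over all lines, 2 h or 3 h alone, 1 h as the baseline, RLE factors, a mean CPM of at least 1, the 12 libraries alone or a GC offset. With 1 library left out it gave 0 to 3. The replicate numbers did not pair the samples throughout: replicate 1 minus replicate 2 correlated between groups from -0.20 to 0.43, over 0.1 in 4 of 15 pairs of groups. The highest values were 0.43 between wt 0 h and Ctrl 0 h and 0.25 between Ctrl 2 h and Ctrl 3 h, so some groups shared a replicate pattern. The 0 h level count of 73 became 135 with the block over all lines, 649 with the block within each line, 701 without the filter, 117 with the GC offset and 248 in DESeq2, and the 2-3 h count of 1003 became 1520 without the filter and 1616 with the GC offset. With 1 library left out, the Ctrl response gave 821 to 4928 calls, the wt response 789 to 2925, the 0 h level 12 to 225 and the 2-3 h level 365 to 1180. Where leaving out 1 library left a lone sample, its spread was taken to equal that of the remaining groups.

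The median difference of genes risen in SoF was -0.21 with a minimum log2 change of 2, -0.13 with the GC offset and -0.14 to 0.39 with 1 library left out, and that of fallen genes was 0.018 with a minimum of 2 and -0.31 to 0.23 with 1 library left out. Of 54 named genes, 3 changed sign under some alternative: NR3C1 (0.010 with the GC offset, 0.0068 at 3 h alone, -0.46 to 0.15 with 1 library left out), PER1 (-0.47 to 0.26) and ZBTB16 (-1.16 to 0.58). Over all genes, the 2 libraries of a group differed more than counting alone gives. The chi-square per degree of freedom ran from 5.47 (Ctrl 3 h) to 19.7 (wt 0 h). It is pooled over genes and does not cover single genes such as ZBTB16 (SE of the difference 0.86). The cause of these shifts was not tested.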
